A study of Mus musculus with 34 samples.

Results

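Cytosolic ribosomal protein genes were followed over 9 ages in cortical astrocytes of male WT mice, separated from the other cells of the tissue with magnets. The genes were taken by name: Rpsa, Rplp0, Rplp1, Rplp2 and every symbol that starts with Rpl or Rps followed by a digit. Rps6 kinases, Rps19bp1 and symbols of pseudogenes containing "-ps" were left out. The rule found 86 of the 20613 genes with values, 52 named for the large subunit and 34 for the small subunit. Of these, 77 were core genes, 46 of the large and 31 of the small subunit, and 9 were copies or relatives of core genes. The 34 libraries of polyadenylated RNA came from mice of 7, 14, 21, 28 and 60 days after birth (P7, P14, P21, P28 and P60, with 4, 4, 3, 3 and 3 libraries) and of 3, 6, 12 and 18 months (3m, 6m, 12m and 18m, with 5, 5, 3 and 4 libraries). Genotype (WT), sex and tissue were the same in all groups, and the labels name no treatment. Whether the libraries of an age are separate animals or pools is not stated, so p-values measure only the spread between libraries, pooled over all ages in a fit.

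The cytosolic ribosome has a small subunit, which decodes the message, and a large subunit, which forms the peptide bond, and each takes up a single copy of nearly every one of its proteins. In mammals most of these messages begin with a C followed by a run of pyrimidines, the 5′ terminal oligopyrimidine (TOP) tract, through which the kinase mTORC1 and the RNA-binding protein LARP1 control their translation and stability. Demand for ribosomes is high in growing and dividing cells, and astrocytes of the mouse cortex divide and enlarge in the first weeks after birth.

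Runs of pyrimidines near the annotated start are shown for genes on which the results below turn: those with large falls after P7, those that rose at 18m, and Rps21, whose P60 and P7 levels were nearly equal. Each line gives 30 bases of the coding strand, 5′ to 3′, from the RefSeq promoter windows of build GRCm38.p6, and the capitals mark an uninterrupted run of C or T. The run begins within 2 bases of the annotated start in Rpl38, Rps18 and Rpl18. It begins upstream in Rps15a and Rpl27 (offsets of -15 and -42 bases) and downstream in Rpl10a and Rpl6 (17 and 31 bases). In Rps21 the run begins at -36 bases from the start of the window shown, and at 34 bases from another annotated start. None of the runs is shown to be the first bases of the message.
Rpl38, chr11:114668568-114668597, plus strand: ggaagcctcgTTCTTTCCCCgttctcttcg
Rps15a, chr7:118116143-118116172, minus strand: gcccggcccaCTCTCTTTCTgccatcttcc
Rps18, chr17:33955647-33955676, minus strand: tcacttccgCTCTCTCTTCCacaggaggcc
Rps21, chr2:180257403-180257432, plus strand: gcacgagctaCTTCCTTTCTgcgctctcgc
Rpl27, chr11:101442194-101442223, plus strand: tcatcctcgCTCCTCCCTCCacacgccgga
Rpl6, chr5:121204521-121204550, plus strand: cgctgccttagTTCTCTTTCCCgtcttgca
Rpl18, chr7:45718062-45718091, plus strand: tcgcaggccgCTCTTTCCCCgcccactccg
Rpl10a, chr17:28328572-28328601, plus strand: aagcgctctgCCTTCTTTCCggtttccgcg

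A window around an annotated start, from 250 bases before to 50 bases after it, was found for 66 of the 86 genes. A run of at least 10 C or T on the coding strand, within 50 bases of the start on either side, was present in 45 of the 66 (68.2%) and in 20.6% of 27025 genes with a window. The 7 bases CCGGAAG, the core of an ETS-family site, were found on either strand in 26 of the 66 (39.4%) and in 9.93% of all genes. Rpl41 and Rps6 show it as follows, in capitals.
Rpl41, chr10:128549206-128549235, minus strand: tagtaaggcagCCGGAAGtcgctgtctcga
Rps6, chr4:86857440-86857469, minus strand: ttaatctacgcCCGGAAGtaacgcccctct
The GC box GGGCGG stood in 60.6% against 38.2% of all genes, and TATAAA in 10.6% against 15.7%, both counted on either strand. These are matches of letters in the windows and do not show binding.

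Levels are TPM, each gene's length-adjusted share of the transcripts of a library, scaled to a sum of 1e+06, so levels can be compared between genes. Read counts are not kept by TPM, and the depth of the libraries is unknown. RSEM 1.2.28 is among the tools named for the processing, without a stated role. How reads were divided between near-identical sequences is not described in the sources used here, and ribosomal protein genes have many such copies. Astrocyte identity was checked on 12 astrocyte genes, which summed to 11633 to 14090 TPM at P7 and to between 12309 and 28167 TPM at later ages. Their sums were 24872 to 26257 TPM at P21 and 25046 to 25738 TPM at P28. Genes of other cells were also present. The 13 neuronal genes summed to between 51.8 and 76.3 TPM at P7, 333 and 651 at P60, 151 and 594 at 3m, and 71.8 and 168 at 18m, with none at 0 in every library. The 13 oligodendrocyte genes summed to between 573 and 793 TPM at P7 and 1534 and 2622 at P60. Erythroid genes summed to between 36270 and 67757 TPM at P21, against at most 10604 at P7. They summed to between 10742 and 45500 TPM at 12m and 8918 and 35088 TPM at 18m, with the highest of 18m in replicate 1. At 3m the sums were 4302 to 8865 TPM. Libraries also fell into 3 ranges of genes listed at 0: 4109 to 4819 (P7, P14, 18m and 12m replicates 1 and 2), 2854 to 3523 (P21, P28 and P60) and 1155 to 1704 (3m, 6m and 12m replicate 3). In comparisons between these ranges, such as P60 with P7, P21 with P14, 3m with P60 and 18m with 3m, age and range cannot be told apart.

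Ribosomal protein transcripts made up the largest share of the library at P7 and the smallest at P21 and P28. The 4 libraries of P7 held 3.73%, 3.53%, 3.47% and 3.72% of all TPM in these genes, 3.61% ± 0.13 (SD, n = 4). At P14 the share was 2.61% ± 0.282 (SD, n = 4; 2.67%, 2.56%, 2.95% and 2.27%). P21 libraries held 1.95%, 1.96% and 1.67%, or 1.86% ± 0.17 (SD, n = 3), and those of P28 held 2.11%, 1.88% and 1.67%, or 1.89% ± 0.224 (SD, n = 3). Every P7 library lay above every P14 library, and every P14 library above every library of P21 and P28, which overlapped each other. At P60 the share was 2.54% ± 0.265 (SD, n = 3; 2.83%, 2.31% and 2.47%), above all libraries of P21 and P28.

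In adult libraries the share overlapped between ages. It was 2.80% ± 0.32 (SD, n = 5) at 3m (2.84%, 2.97%, 2.57%, 2.40% and 3.21%) and 2.34% ± 0.666 (SD, n = 5) at 6m, where single libraries held 1.48%, 2.29%, 2.90%, 1.95% and 3.09%. It was 2.34% ± 0.453 (SD, n = 3) at 12m (2.30%, 2.81% and 1.91%) and 2.67% ± 0.344 (SD, n = 4) at 18m (3.19%, 2.51%, 2.50% and 2.50%). No library after P7 reached the lowest P7 library. After median-of-ratios rescaling, which sets the typical gene equal across libraries, the mean shares ran 3.39%, 2.68%, 1.96%, 1.83%, 2.696%, 2.65%, 2.35%, 2.24% and 3.07% from P7 to 18m. On that scale 18m replicate 1 exceeded every P7 library with 4.42%, and 6m replicate 5 (3.43%) lay within the P7 range (3.18% to 3.61%). With the erythroid list left out of the total, an alternative chosen after the data were seen, the share was 3.65% at P7 and 1.95% at P21. In bulk libraries fewer cells of a type and less RNA per cell cannot be told apart.

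**Figure D1:**
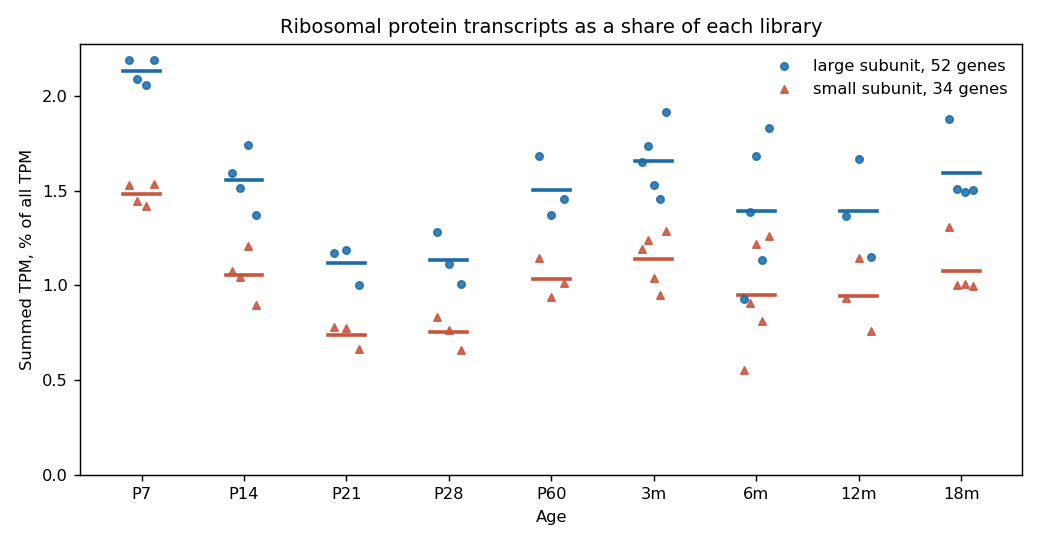
Summed TPM of the large-subunit and small-subunit genes as a percent of all TPM (y axis) in each of the 34 libraries (points) at the 9 ages (x axis), with the mean of each age as a horizontal line. P7 lies highest for both subunits, P21 and P28 lowest, and the 5 libraries of 6m spread widest.

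The subunits moved in parallel. Large-subunit genes held 2.13% ± 0.0692 (SD, n = 4) of all TPM at P7, 1.12% ± 0.103 (SD, n = 3) at P21 and 1.504% ± 0.16 (SD, n = 3) at P60. Small-subunit genes held 1.48% ± 0.0605 (SD, n = 4) at P7, 0.740% ± 0.0665 (SD, n = 3) at P21 and 1.03% ± 0.105 (SD, n = 3) at P60. The ratio of the large-subunit to the small-subunit sum was 1.44 ± 0.0122 (SD, n = 4) at P7, 1.51 ± 0.0123 (SD, n = 3) at P21 and 1.46 ± 0.0131 (SD, n = 3) at P60. All P21 libraries (1.503 to 1.53) had a higher ratio than all P7 libraries (1.42 to 1.45), and over all 34 libraries the ratio ran from 1.38 to 1.68, both extremes being libraries of 6m. No test was made on these sums.

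The 77 core genes ranged over all libraries from a mean of 46.1 TPM for Rpl22 to 966 TPM for Rpl41, with a median of 268 TPM, and 73 of them averaged at least 100 TPM. Rpl41 encodes the smallest ribosomal protein, and Rpl13 (863 TPM), also of the large subunit, was among the highest too. The order of the genes was similar across ages: Spearman's rho across the 77 genes was 0.984 between the means of P7 and 18m and 0.972 between those of P7 and P21. These are descriptions across genes, which share libraries and are not independent replicates. The median SD of a core gene within an age was 0.25 on the log2 scale, and 0.14 once the median core gene of each library was subtracted.

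The age profile was shared by nearly the whole family. The highest age mean was at P7 in 76 of the 77 core genes, and the lowest at P21 in 57 and at P28 in 20. The exception was Rps21, a small-subunit protein, with a mean of 281 TPM at P60 and 279 TPM at P7. The highest mean was 1.94 times the lowest in the median core gene, with a range from 1.48 for Rpl4 to 2.74 for Rpl38. In 76 of the 77 every P7 library lay above every P21 and P28 library. The remaining gene was Rps2, where P21 replicate 2 (361 TPM) exceeded P7 replicate 3 (359 TPM). The share of all genes tested with the highest mean at P7, or with this separation, was not counted. The profile is therefore not shown to be particular to the family. In the median core gene the P21 mean was 0.518 of the P7 mean and the P60 mean 0.683 of it.

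Differences were tested with limma (two-sided) on log2(TPM + 1), 1 mean per age, for the 14590 genes that reached 1 TPM in 3 or more libraries. A gene was called at a Benjamini-Hochberg adjusted p under 0.05. Of the 86 members, 84 passed the filter, including all 77 core genes, while Rpl10l and Rpl39l did not. The F test over the 9 ages called 82 of the 84, against 63.6% of all genes tested. Those not called were Rps2 (adjusted p = 0.0774) and Rps23rg1 (adjusted p = 0.165). After median-of-ratios rescaling the F test called 62 of the 84 members and 62.7% of all genes.

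**Figure D2:**
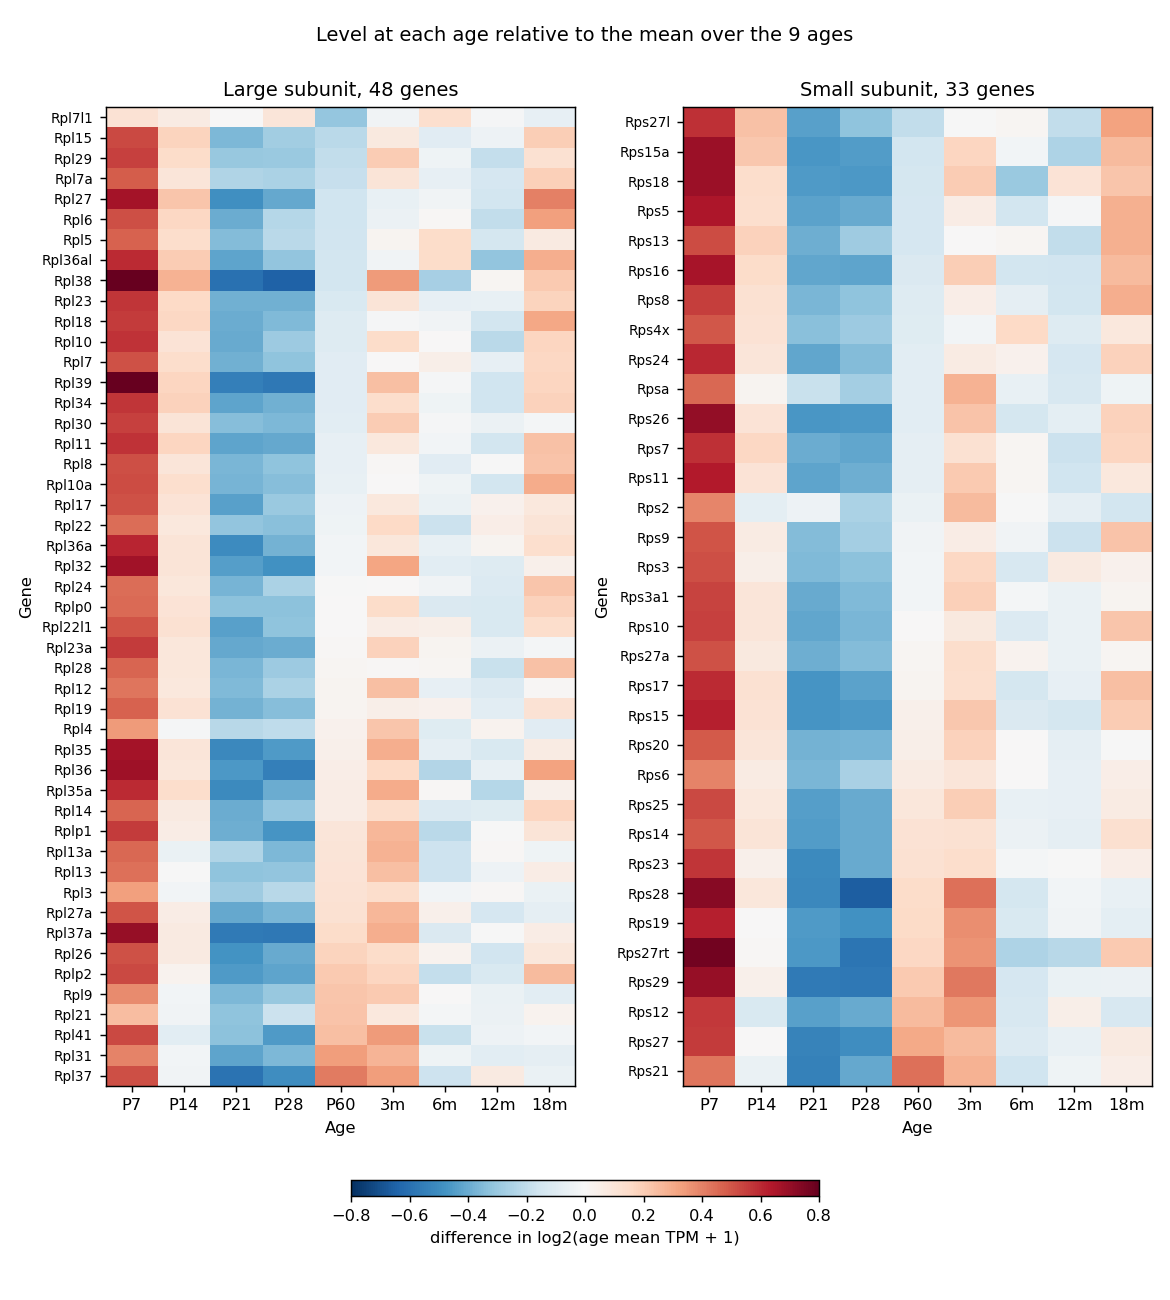
Difference of log2(age mean TPM + 1) from the mean over the 9 ages (colour, red higher and blue lower) for 48 large-subunit and 33 small-subunit genes (rows) at each age (columns), sorted by the value at P60, with the colour saturated beyond 0.8 in either direction. Nearly every row is reddest at P7 and bluest at P21 or P28.

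The comparison of P60 with P7 describes postnatal development. Ribosomal protein transcripts fell: 57 of 84 members were lower at P60 and 1 was higher, where 33.3% of all genes tested were lower and 19.5% higher. The median log2 fold change of the 84 was -0.55, against -0.15 over all genes. After rescaling, 17 members were lower and 1 higher (21.4% and 28.3% of all genes), and the median was -0.37 for the members and 0.01 for all genes, so that the direction of the members held while the number of calls dropped. In 71 of the 84 genes every P60 library lay below every P7 library, as in 37.9% of all genes, and in 1, Rpl3l, above (22.5% of all genes). Neuronal genes moved the other way (9 of 13 rose), as did 9 of 13 oligodendrocyte genes, while 3 oligodendrocyte genes fell. In a fit with the levels of both lists as covariates, 73 members were lower and 1 higher, against 12.9% and 12.2% of all genes. Among markers of other cells, 7 of 13 microglial and 8 of 8 ependymal genes rose, 6 of 10 endothelial and 5 of 7 fibroblast genes fell, and 1 of 8 pericyte genes rose and 1 fell. Of the 12 astrocyte genes, 6 rose and 3 fell. The part of these lists in the result was not tested.

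Of the 50 large-subunit genes tested, 36 fell, with a median log2 fold change of -0.55. Rpl38, a large-subunit protein whose loss alters the pattern of the axial skeleton in mice, lies on chromosome 11 (114668524 to 114672331, plus strand, GRCm38). Rpl38 held 701, 792, 761 and 737 TPM in the P7 libraries and 448, 357 and 353 TPM in those of P60. The groups were far apart, with a 1.94-fold lower mean at P60 (log2 fold change -0.96, SE 0.28, adjusted p = 0.00694). After rescaling Rpl38 fell just short of the threshold (log2 fold change -0.78, adjusted p = 0.0562). Rpl39, which lines the exit tunnel for the growing peptide, had 190, 177, 187 and 185 TPM at P7 and 106, 87.1 and 103 TPM at P60. The fall of Rpl39 was 1.87-fold with no overlap (log2 fold change -0.90 ± 0.30 SE, adjusted p = 0.015). Without P60 replicate 2 the adjusted p of Rpl39 was 0.0572, and after rescaling it was 0.0903.

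Rpl27, a large-subunit protein encoded on chromosome 11 (101442298 to 101445529, plus strand), averaged 506 ± 16 TPM (SD, n = 4) at P7 and 285 ± 11.2 TPM (SD, n = 3) at P60. The fall of Rpl27 was 1.78-fold (log2 fold change -0.83 ± 0.16 SE, adjusted p = 0.000255) and was also called after rescaling (adjusted p = 0.0166). The smallest adjusted p of the family was that of Rpl6, on chromosome 5 (121204481 to 121209241, plus strand). Rpl6 held 255, 248, 227 and 235 TPM at P7 and 158, 138 and 156 TPM at P60 (log2 fold change -0.68, SE 0.09, adjusted p = 1.1e-05). Both groups were tight, and the fall was called after rescaling as well (adjusted p = 0.00715). Rpl18 (574 to 362 TPM) and Rpl10 (408 to 254 TPM), an X-linked protein that sits near the catalytic centre, also fell. So did Rpl7 (326 to 215 TPM), Rpl22 (61.7 to 43.8 TPM) and the X-linked Rpl36a (218 to 140 TPM). Rplp0, the base of the ribosomal stalk and a common reference gene, averaged 356 ± 13.7 TPM (SD, n = 4) at P7 and 261 ± 26.6 TPM (SD, n = 3) at P60, 1.37-fold lower (adjusted p = 0.0032), a call lost after rescaling (adjusted p = 0.175) and with the covariates (adjusted p = 0.0703).

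Of the 34 small-subunit genes, 21 fell, and the median log2 fold change was -0.56. Rps18, a protein of the subunit's head, lies on chromosome 17 (33951999 to 33956001, minus strand) and averaged 750 ± 42.7 TPM (SD, n = 4) at P7 and 422 ± 47.2 TPM (SD, n = 3) at P60. It was 1.77-fold lower (log2 fold change -0.83 ± 0.20 SE, adjusted p = 0.00161), with no overlap, and stayed past the threshold after rescaling (adjusted p = 0.0426). Rps15a held 187, 166, 172 and 175 TPM at P7 and 105, 88.5 and 100.2 TPM at P60. The fall of Rps15a was 1.79-fold (log2 fold change -0.83 ± 0.23 SE, adjusted p = 0.00392). Rpsa, also known as the laminin receptor, fell from 248 to 170 TPM (adjusted p = 0.00591), and Rps27a, which encodes a fusion of ubiquitin with a ribosomal protein, from 396 to 281 TPM (adjusted p = 0.0437). Both calls were lost after rescaling (adjusted p = 0.139 and 0.277), and that of Rps27a also without any single library of the 2 ages. The X-linked Rps4x fell from 244 to 162 TPM (adjusted p = 0.00428).

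Other well-known members did not pass the threshold. Rps6, the substrate of S6 kinase downstream of mTORC1, averaged 435 ± 26.5 TPM (SD, n = 4) at P7 and 346 ± 24.5 TPM (SD, n = 3) at P60 without overlap (adjusted p = 0.065). Rpl13a averaged 567 TPM at P7 and 444 TPM at P60 (adjusted p = 0.0958), Rpl41 averaged 1342 and 1100 TPM (adjusted p = 0.336), and Rpl3 averaged 310 and 268 TPM (adjusted p = 0.233). Libraries of the 2 ages overlapped in these 3 genes. The P60 and P7 means of Rpl21 were nearest to each other among large-subunit genes: 342, 316, 310 and 325 TPM at P7 stood beside 340, 287 and 329 TPM at P60 (log2 fold change -0.02 ± 0.13 SE, adjusted p = 0.889). Rps21 held 282, 272, 277 and 285 TPM at P7 and 315, 260 and 269 TPM at P60 (log2 fold change 0.01 ± 0.26 SE, adjusted p = 0.985). With the neuronal and oligodendrocyte covariates, Rps21 turned to a fall (log2 fold change -0.89, adjusted p = 0.0184).

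**Figure D3:**
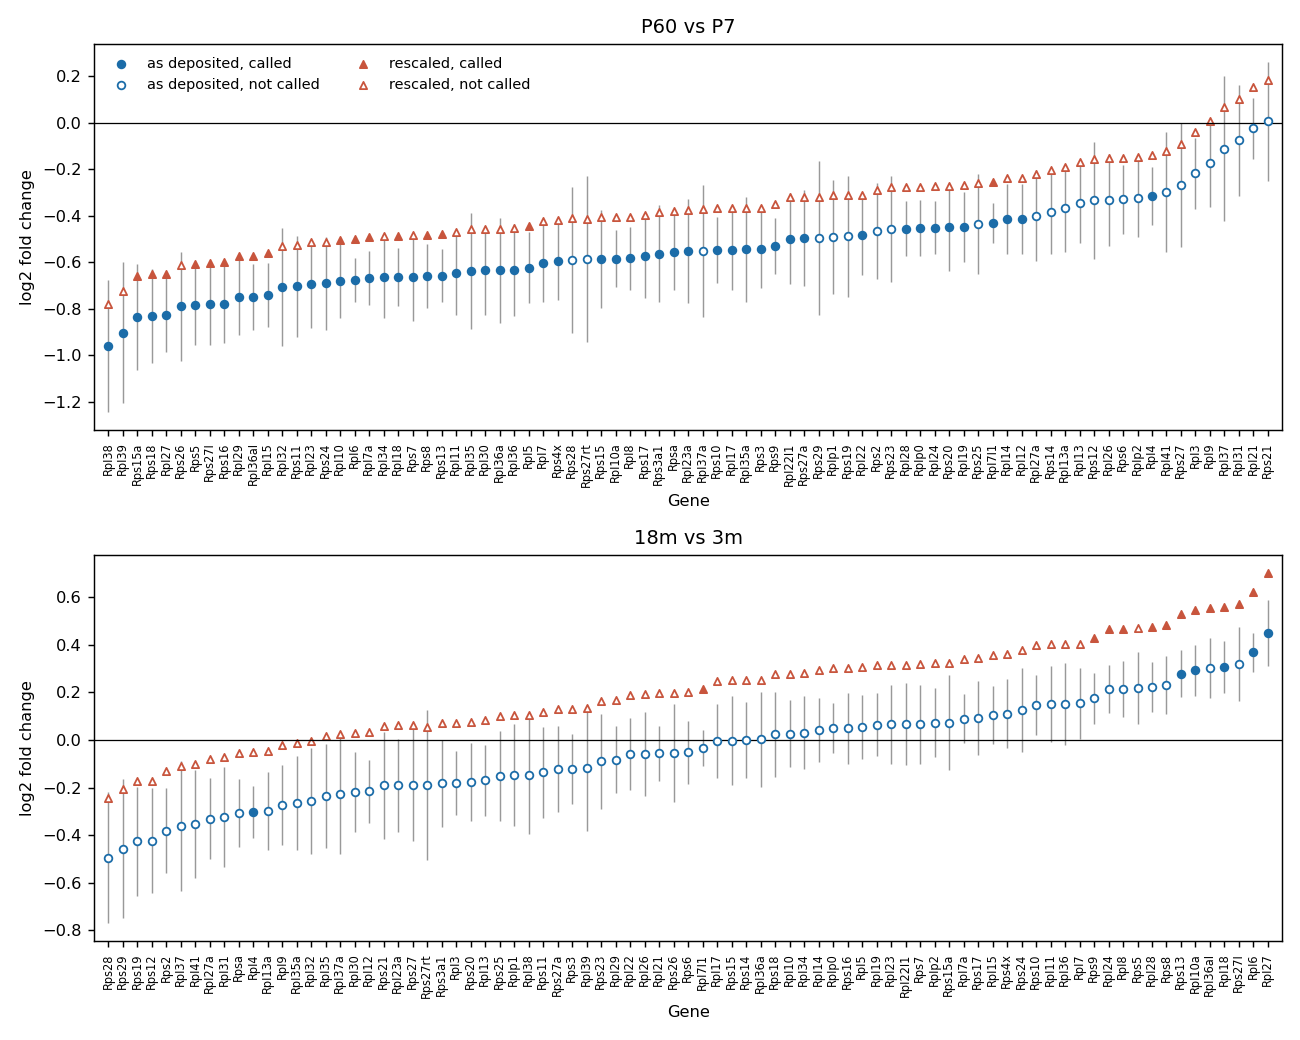
Log2 fold change (y axis) of 81 tested members with a mean of at least 5 TPM (x axis) for P60 minus P7 and for 18m minus 3m, with the standard errors of the deposited scale as bars, as deposited (circles) and after median-of-ratios rescaling (triangles). Filled symbols are called at an adjusted p under 0.05. Most circles of P60 against P7 lie below 0, and rescaling shifts nearly all symbols upward in both comparisons.

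As deposited, the steps between neighbouring ages with the most members called lower were P7 to P14 and P14 to P21. From P7 to P14, 22 members fell and 1, Rpl3l, rose, against 8.57% and 3.28% of all genes, with a median log2 fold change of -0.45 for the members and -0.10 for all genes. The largest called fall was that of Rps12, a small-subunit protein, from 151, 146, 142 and 162 TPM to 97.5, 86.1, 113 and 75.6 TPM. It was 1.62-fold with no overlap (log2 fold change -0.70 ± 0.23 SE, adjusted p = 0.0469), and missed the threshold without any single library of the 2 ages (adjusted p from 0.0523 to 0.127). P7, P14 and 18m libraries lie in the same range of genes at 0. The number of calls depended on single libraries, although 83 of the 84 fold changes were below 0. It was 10 or fewer without any single P7 library and 11, 3 and 2 without P14 replicates 1, 2 and 4. After rescaling none was called lower and 1 was called higher (4.18% and 7.33% of all genes), with a median of -0.32, and with the covariates 70 were called lower and 1 higher, against 6.92% and 4.65% of all genes.

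From P14 to P21, 31 members fell and none rose, against 7.59% and 5.6% of all genes, with a median log2 fold change of -0.50 for the members and -0.03 for all genes. Rpl38 fell most, from 565, 492, 602 and 411 TPM to 343, 254 and 251 TPM, with no overlap. The change of Rpl38 was 1.83-fold (log2 fold change -0.87 ± 0.28 SE, adjusted p = 0.0414), and was called without P14 replicate 4 or P21 replicate 1 but not without any other library of the 2 ages. Rpl27 fell from 372 ± 45.3 TPM (SD, n = 4) to 226 ± 15.3 TPM (SD, n = 3) and Rpl6 from 188 to 127 TPM (adjusted p = 0.000653). Single libraries mattered here too: 15 and 9 members were called without P14 replicates 1 and 3, and 15, 10 and 7 without P21 replicates 1, 2 and 3. Rescaling left 4 calls, all lower (5.15% of all genes, with 8.77% higher), with a median of -0.46, and the covariates gave 73 lower (5.02% of all genes, with 4.52% higher). Erythroid transcripts were highest at P21, with 5 of 6 tested genes of that list called higher than at P14.

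No member was called by limma from P21 to P28, where 1 had an unadjusted p under 0.05 and 0.0206% of all genes were called. From P28 to P60 the fold changes of 83 of 84 members were above 0, with a median of 0.33 against -0.11 for all genes, and 34 had an unadjusted p under 0.05. The share of all genes at that unadjusted p was not counted, in this step or any other. No core gene passed the adjusted threshold in that step, and 0.212% of all genes were called higher. The single call was a fall of Rpl7l1, a relative of Rpl7 that acts in the nucleolus, where 0.905% of all genes were lower. Rpl7l1 held 72.4, 76.6 and 75.0 TPM at P28 and 51.2, 58.4 and 58.5 TPM at P60 (log2 fold change -0.41 ± 0.09 SE, adjusted p = 0.0254). It was again higher at 3m (68.4, 68.9, 72.3, 73.5 and 58.1 TPM; log2 fold change 0.28 ± 0.08 SE, adjusted p = 0.0284), with 3m replicate 5 among the P60 values. It was the only member called from P60 to 3m, where 8.26% of all genes rose and 1.93% fell. Both calls of Rpl7l1 were lost after rescaling (adjusted p = 0.111 and 0.398) and without any single P60 library, and the first also without P28 replicate 2 or 3 and the second without 3m replicate 3 or 4.

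From 3m to 6m, 4 members fell and none rose (7.25% and 2.07% of all genes), namely Rpl38, Rps18, Rpl13 and Rpl4. The share of members that fell was thus below that of all genes. In limma fits on only the 2 ages no member was called, and the share of all genes was not counted. The fit of all ages pools the spread, while the SD of the family's percent of all TPM was 0.666 at 6m and 0.32 at 3m. The 6m libraries of Rpl38 spread from 156 to 695 TPM, with 197, 355 and 372 TPM between, and those of 3m held 518, 506, 493, 522 and 668 TPM. The groups overlapped (log2 fold change -0.80 ± 0.24 SE, adjusted p = 0.0328), and the call was lost without 3m replicate 1, 4 or 5 or 6m replicate 1 or 4. The number of calls swung with single libraries: 21 without 6m replicate 5 and 13 without 6m replicate 3, but none without 6m replicate 1 or 3m replicate 1 or 5, and 1 without 3m replicate 2 or 6m replicate 4. After rescaling none was lower and 1 was higher (6.99% and 6.09% of all genes), and the covariates left no call (9.15% of all genes lower and 0.946% higher). By limma no member was called from 6m to 12m, where 3 had an unadjusted p under 0.05 and 0.0548% of all genes were called.

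From 12m to 18m, 12 members rose and none fell, against 1.52% and 18.6% of all genes, with a median log2 fold change of 0.21 for the members and -0.21 for all genes. Rpl36al, a copy of the X-linked Rpl36a, rose most, from 200.1, 263 and 254 TPM to 481, 352, 308 and 317 TPM. This was 1.52-fold with no overlap (log2 fold change 0.59 ± 0.14 SE, adjusted p = 0.00692), and was lost without 12m replicate 1 (adjusted p = 0.0538). Rpl27, Rpl6, Rps27l, Rps13, Rpl10a and Rpl18 were also among the 12. With the covariates 26 rose and none fell (1.34% and 23.6% of all genes). In limma fits on only the 2 ages no member was called, and 0% of all genes, while 20 of the 84 had an unadjusted p under 0.05, all of them higher. The share of all genes at that unadjusted p was not counted. In the fit of all ages, the number of members called was 3 without 18m replicate 1, and 4 or 5 without 12m replicate 1 or 3. The 12m libraries lie in 2 ranges of genes at 0, replicates 1 and 2 in that of 18m and replicate 3 in another, so no test within a range keeps more than 2 libraries of 12m.

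The comparison of 18m with 3m was meant to describe aging. The 18m libraries list 4109 to 4654 genes at 0 and the 3m libraries 1155 to 1656, so age and range cannot be told apart. Few ribosomal protein genes moved: 5 of 84 rose and 1 fell, where 4.16% of all genes rose and 33.4% fell. The median log2 fold change of the members was -0.05, against -0.24 over all genes, and turned to 0.20 after rescaling, against -0.02 over all genes. Rescaling called 13 members higher and none lower (17.6% and 19.0% of all genes), so the direction of the family as a whole depends on the scaling. In 3 members every 18m library lay above every 3m library (3.17% of all genes), and in 1 below (26.1%). Neuronal genes were lower at 18m, with 9 of 13 called, and 2 of 13 oligodendrocyte genes were higher. Of the other lists, 5 of 13 microglial and 3 of 7 fibroblast genes were lower, and 6 of the 12 astrocyte genes were lower and 2 higher, while no endothelial, pericyte, erythroid or ependymal gene was called. Their part in the result was not tested. With both lists as covariates, 11 members were higher and none lower, against 1.1% and 30.5% of all genes.

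The 5 genes that rose were Rpl27, Rpl6, Rpl18, Rpl10a and Rps13. Rpl27 held 306 ± 27.8 TPM (SD, n = 5) at 3m and 422 ± 78.5 TPM (SD, n = 4) at 18m, 1.38-fold higher without overlap (log2 fold change 0.45 ± 0.14 SE, adjusted p = 0.0125). Rpl6 held 165, 165, 150, 166 and 169 TPM at 3m and 242, 197, 211 and 196 TPM at 18m. All 4 libraries of 18m were higher, by 1.30-fold on average (log2 fold change 0.37 ± 0.08 SE, adjusted p = 0.00112). Rps13 held 317, 272, 294, 288 and 284 TPM at 3m and 402, 329, 364 and 320.4 TPM at 18m, a narrow separation without overlap (log2 fold change 0.28 ± 0.10 SE, adjusted p = 0.0286). Rpl18 and Rpl10a, both of the large subunit, were 1.25-fold and 1.23-fold higher, and their libraries overlapped. After rescaling all 5 were called higher, with adjusted p between 0.000789 and 0.00969, and with the covariates Rps13 missed the threshold (adjusted p = 0.118).

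Without 18m replicate 1, which had the highest level of each of these 5 genes among the 18m libraries, 1 member was called. The adjusted p was then 0.0925 for Rpl27, 0.213 for Rpl18, 0.132 for Rpl10a and 0.136 for Rps13. Without 3m replicate 2, 2 members were called, and Rpl18 missed the threshold also without 3m replicate 1 or 3, Rpl10a without 3m replicate 3 or 18m replicate 2, and Rps13 without 18m replicate 3. The call of Rpl6 held without any single one of the 9 libraries (highest adjusted p = 0.011). Rpl4, which lines the exit tunnel, was the gene that fell: it held 270, 303, 213, 251 and 302 TPM at 3m and 209, 219, 218 and 215 TPM at 18m. One 3m library lay among those of 18m (log2 fold change -0.30 ± 0.11 SE, adjusted p = 0.0315), and the call was lost after rescaling (log2 fold change -0.05, adjusted p = 0.81), with the covariates (adjusted p = 0.769) and without any single library except 3m replicates 3 and 4 and 18m replicate 3.

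The comparison of 18m with P7 joins the oldest and the youngest age, and both lie in the same range of genes at 0. At 18m 32 members were lower and 1 higher, against 24.9% and 4.67% of all genes, with a median log2 fold change of -0.43 for the members and -0.20 for all genes. In 59 members every 18m library lay below every P7 library (29.4% of all genes), and in 1 above (4.93%). Rps28, a small-subunit protein altered in Diamond-Blackfan anaemia, held 422, 452, 437 and 462 TPM at P7 and 332, 233, 230.3 and 227 TPM at 18m. The fall was 1.73-fold (log2 fold change -0.81 ± 0.29 SE, adjusted p = 0.0369), and was called without 18m replicate 1 but not without any other library of the 2 ages. Rps12 fell from 151 ± 8.75 TPM (SD, n = 4) to 92.7 ± 2.3 TPM (SD, n = 4), with 94.5, 94.6, 92.2 and 89.7 TPM in the 18m libraries (log2 fold change -0.69 ± 0.23 SE, adjusted p = 0.0266). Rps19, another anaemia gene, and the large-subunit genes Rpl32 and Rpl35 also fell, by 1.62-fold, 1.55-fold and 1.52-fold. Each of these 5 calls was lost after rescaling and without P7 replicate 1 or 4.

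This count too depended on scaling and on single libraries. After rescaling no member was called lower at 18m than at P7 and 1 was called higher (9.14% and 10.9% of all genes), with a median of -0.17. Without P7 replicates 1 to 4 in turn, 6, 11, 19 and 9 members were called, and without 18m replicates 2, 3 and 4, 13, 12 and 8. Without 18m replicate 1 the count was 46. With the covariates 55 were lower and 1 higher, against 25.9% and 5.25% of all genes. P7 serves in this comparison and in that of P60 with P7, and 18m in this and in that with 3m, so they share libraries and are not independent.

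To see whether single genes moved against the rest of the family, each library was shifted on the log2 scale by its median member, which removes any change common to the family. The shift holds the median member fixed and moves every other gene by the family's own change. Shares of all genes after the shift, for each pair of ages, therefore follow in part from the shift. They do not tell members from genes in general. From P7 to P60, 3 members then rose and 2 fell, with 29.5% and 2.23% of all genes called higher and lower on the shifted scale. Rpl21 rose relative to the other members (log2 difference 0.44 ± 0.13 SE, adjusted p = 0.00766), as did Rps21 (0.47 ± 0.18 SE, adjusted p = 0.0392) and Rpl3l. Rpl38 fell relative to them (log2 difference -0.50 ± 0.18 SE, adjusted p = 0.0349), as did Rps18 (-0.37 ± 0.13 SE, adjusted p = 0.0331). Leaving out any single library of P7 or P60 reduced these 5 calls to between 1 and 3. With each library centred on its mean member, 4 rose and none fell, and Rpl38 (adjusted p = 0.0616) and Rps18 (adjusted p = 0.0774) missed the threshold. With the neuronal and oligodendrocyte covariates 2 rose and 12 fell, and the sign of Rps21 turned (log2 difference -0.04).

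From 3m to 18m the shifted values called 1 member, Rpl27, where 0.795% of all genes rose and 9.18% fell. Rpl27 rose relative to the other members by 0.49 ± 0.13 SE on the log2 scale (adjusted p = 0.0124). Rpl6 showed 0.41 ± 0.14 SE and just missed the threshold (adjusted p = 0.0515). Without 18m replicate 1, Rpl27 was not called (adjusted p = 0.0714), and without 3m replicate 4 5 members were. From P7 to 18m the shifted values called only Rpl3l (7.5% of all genes rose, 1.06% fell), and none was called without P7 replicate 1 or 18m replicate 2 or 4.

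**Figure D4:**
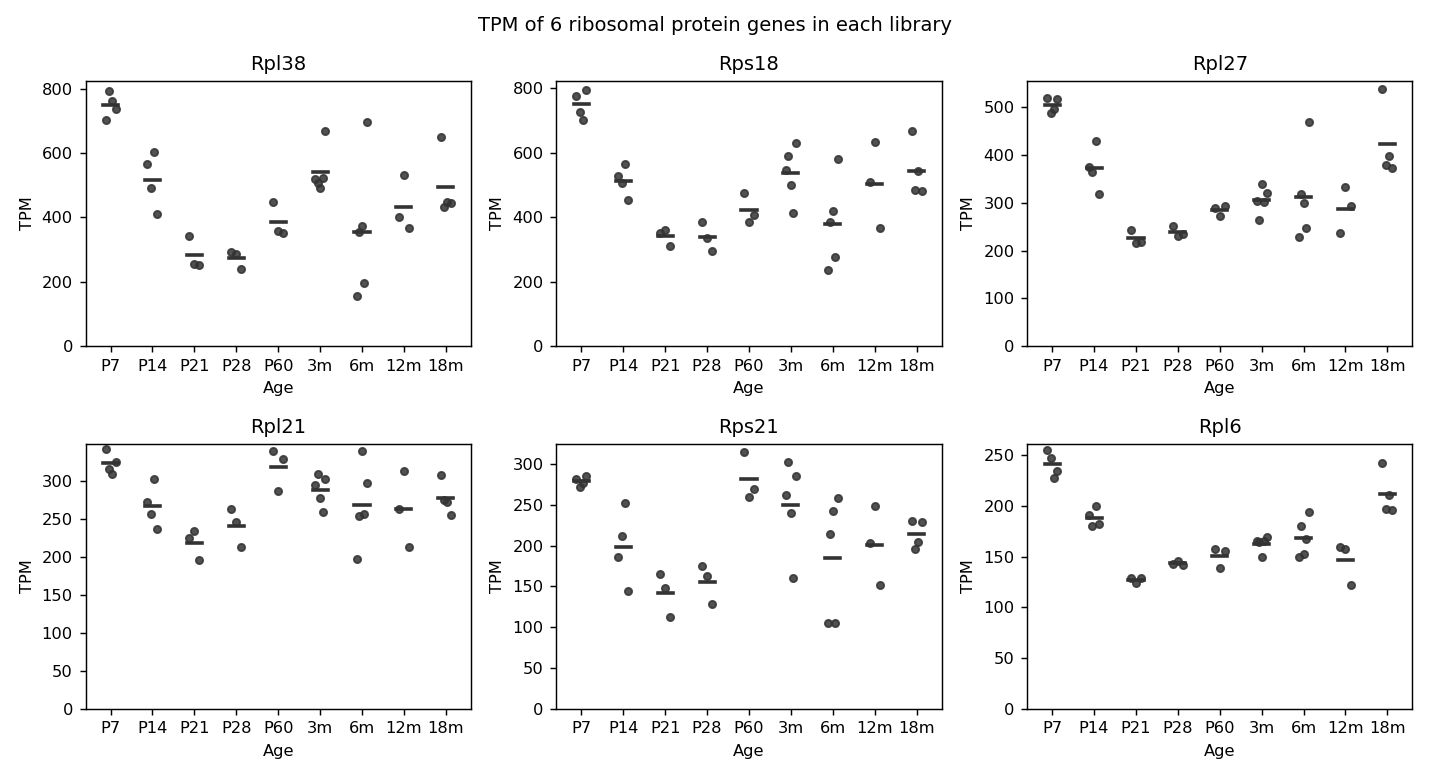
TPM (y axis, from 0) of Rpl38, Rps18, Rpl27, Rpl21, Rps21 and Rpl6 in each library (points) at the 9 ages (x axis), with the mean of each age as a horizontal line. Rpl38 drops from between 701 and 792 TPM at P7 to between 353 and 448 TPM at P60, while Rpl21 and Rps21 overlap between these ages.

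The 9 copies and relatives ranged from levels of core genes to levels close to 0. Rpl3l, the relative of Rpl3 known from striated muscle, held at most 0.307 TPM in the P7 libraries and 0.895, 0.373 and 0.640 TPM at P60. It was called higher at P60 (log2 fold change 0.53 ± 0.20 SE on the log2(TPM + 1) scale, adjusted p = 0.0287), but its highest level in any library was 1.47 TPM, and the call was lost without P7 replicate 1, 2 or 4 or P60 replicate 1 or 3. Rpl39l and Rpl10l, relatives known from the testis, stayed at or below 1.44 and 0.255 TPM. Rpl10l was listed at 0 in every library of P7, P14, P21, P60 and 18m. Rps23rg1, a retrogene derived from Rps23, held between 0.864 and 3.02 TPM, and Rps27rt averaged 29.6 ± 8.48 TPM (SD, n = 4) at P7.

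4 copies were abundant, and some exceeded the gene they resemble. Rpl22l1 averaged 201 ± 20.1 TPM (SD, n = 4) at P7, when Rpl22 averaged 61.7 ± 2.51 TPM (SD, n = 4). The ratio of Rpl22l1 to Rpl22 was 3.27 ± 0.313 (SD, n = 4) at P7, and its age means lay between 2.80 at 12m and 3.67 at 6m. Rpl36al held 2.07 ± 0.106 times (SD, n = 4) the level of Rpl36a at P7, with age means from 1.70 at 12m to 2.65 at 6m. Both ratios were highest on average at 6m, and neither was tested. The 6m libraries ran from 3.27 to 4.14 for Rpl22l1 over Rpl22 and from 2.02 to 4.07 for Rpl36al over Rpl36a. The highest of the latter was replicate 1, with 269.7 TPM of Rpl36al and 66.2 TPM of Rpl36a. From P7 to P60 Rpl22l1 fell from 201 to 142 TPM, Rpl36al from 451 to 269 TPM and Rpl7l1 from 75.8 to 56.0 TPM.

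Rps27l, a relative of Rps27 that is induced by p53, held 0.539 ± 0.0409 (SD, n = 4) of the Rps27 level at P7 and 0.381 ± 0.0655 (SD, n = 3) at P60, with no overlap between these ages (0.497 to 0.591 and 0.306 to 0.427). At 18m the ratio was 0.636 ± 0.0314 (SD, n = 4), and at 3m 0.463 ± 0.143 (SD, n = 5), where libraries ran from 0.312 to 0.671. Behind the lower ratio at P60, Rps27l fell from 518 to 302 TPM (log2 fold change -0.78 ± 0.18 SE, adjusted p = 0.000948; 0.0652 with the covariates), while Rps27 averaged 962 and 805 TPM with overlap (adjusted p = 0.407). The ratios were not tested. Reads shared by a copy and its core gene could be split either way, so these ratios are uncertain.

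**Figure D5:**
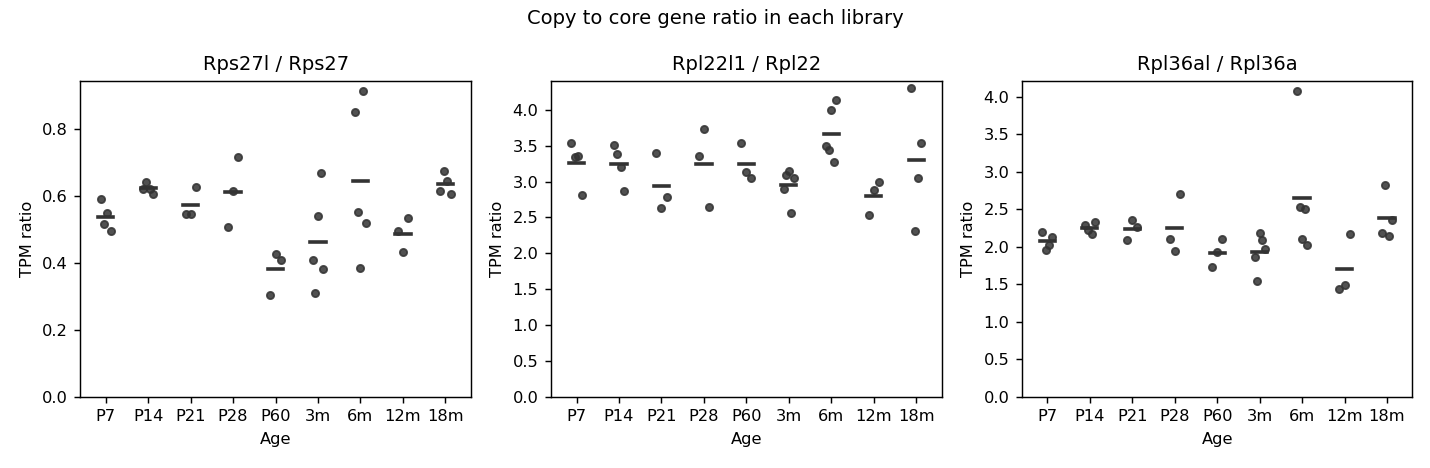
Ratio of the TPM of a copy to that of its core gene (y axis, from 0) in each library (points) at the 9 ages (x axis) for Rps27l over Rps27, Rpl22l1 over Rpl22 and Rpl36al over Rpl36a, with the mean of each age as a horizontal line. Rpl22l1 and Rpl36al lie above 1 in every library, and Rps27l lies below 1.

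Other genes of the translation machinery moved in the same direction from P7 to P60. Of 20 other genes with TOP messages, mostly elongation and initiation factors, 16 fell and none rose, and 10 fell after rescaling. Rack1, a scaffold on the small subunit, fell from 153 ± 7.62 TPM (SD, n = 4) to 92.9 ± 2.96 TPM (SD, n = 3; adjusted p = 5.8e-05), and Eef1d, a subunit of elongation factor 1, from 238 to 160.1 TPM (adjusted p = 0.000122). Of 35 ribosome biogenesis genes 19 fell and none rose, and after rescaling 10 fell and 1 rose. Nhp2, a protein of the particles that modify ribosomal RNA, fell from 106 to 64.8 TPM, and the nucleolar Nop16 from 40.2 to 27.2 TPM. Of 19 genes for RNA polymerase I and its factors 12 fell and none rose, and 3 fell after rescaling. Polr1d, a subunit shared by RNA polymerases I and III, fell from 93.5 to 59.0 TPM (adjusted p = 5.3e-05). Over all genes tested 33.3% fell as deposited and 21.4% after rescaling.

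Of 23 genes of mTORC1 signalling and TOP control, 10 fell and 2 rose from P7 to P60, and 6 and 4 did so after rescaling. Over all genes tested 33.3% fell and 19.5% rose as deposited, and 21.4% fell and 28.3% rose after rescaling. Rraga, a GTPase that recruits mTORC1 to the lysosome, fell from 114 to 75.9 TPM (adjusted p = 4.5e-05), and Mycn, a transcription factor of growing cells, from 7.18 ± 1.07 TPM (SD, n = 4) to 2.87 ± 0.853 TPM (SD, n = 3). From 3m to 18m 1 gene of this list rose and 10 fell, where 4.16% of all genes rose and 33.4% fell. After rescaling 4 rose and 6 fell, where 17.6% and 19% of all genes did so. Mycn was again 2.55-fold lower (9.23 ± 2.14 TPM, SD, n = 5, to 3.62 ± 0.802 TPM, SD, n = 4, adjusted p = 8.1e-05). Eif4g1, the scaffold of the cap-binding complex, fell from 32.1 to 20.5 TPM.

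In the aging comparison the counts of the other lists depended on the scaling. Over all genes tested 4.16% rose and 33.4% fell as deposited, and 17.6% rose and 19% fell after rescaling. From 3m to 18m 2 of the 20 TOP genes rose and 6 fell, but 9 rose and 1 fell after rescaling. The elongation factor genes Eef1g (119 to 88.2 TPM) and Eef2 (111 to 83.1 TPM) were among those that fell as deposited. Among the 35 ribosome biogenesis genes 2 rose and 3 fell, and 17 rose and none fell after rescaling. Mrto4, an assembly factor of the large subunit, rose from 47.6 ± 1.35 TPM (SD, n = 5) to 56.1 ± 2.39 TPM (SD, n = 4; adjusted p = 0.00488), and Rrp12 fell from 3.74 to 2.51 TPM (adjusted p = 0.015). Of the 19 polymerase I genes 3 rose and 3 fell, and 9 rose and none fell after rescaling. Znrd1, a subunit of polymerase I, rose from 64.3 to 82.5 TPM (adjusted p = 0.00623), and Polr2h, shared by the nuclear RNA polymerases, from 57.02 to 71.9 TPM.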

How the data were processed

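The deposited values are TPM, made by the authors, 1 column per library, and each library summed to 1e+06 TPM over 20613 genes, with 1 further gene without values. Trim Galore 0.6.4, STAR 2.7.1a, RSEM 1.2.28, DESeq2 1.36.0 and genome build mm10 are named, without their roles, per the submitters' processing notes. RNA was extracted on a column kit and copied with a low-input template-switching kit, per the labels' protocols.

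The ribosomal protein genes, the other gene lists and the named genes' rule were chosen with earlier results of these data known. Tests used limma 3.58.1 (empirical Bayes, trend and robust, statmod 1.5.0, R 4.3.3) on log2(TPM + 1), which understates changes of low genes, for genes that reached 1 TPM in 3 or more libraries, 1 mean per age over 34 libraries, with Benjamini-Hochberg adjustment over all genes. Fold values are ratios of mean TPM. The method was tested on simulated data. "Rose" and "fell" mean called at an adjusted p under 0.05. As alternatives the fits were repeated with median-of-ratios rescaling, with quantile normalization, with a pseudocount of 0.1, with no filter or one of 5 TPM, with a replicate block, covariates for neuronal and oligodendrocyte genes, only the 2 ages compared, centring on the mean member and leaving out each library.

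Named genes were the 3 highest and 3 lowest members, the 5 largest called rises and falls of the main comparisons whose higher age averaged 5 TPM or more, the largest of each step, a fixed set of members, the copies, and the 2 of smallest p in each related list. Rps2, Rps23rg1 and others singled out as exceptions were chosen after their values were seen. A single item is counted with the members but not reported here by name. Same-numbered libraries did not deviate together (mean correlation 0.0023 over 119 pairs) and no library was identical to another. Positions are from GENCODE vM21 (GRCm38), sequences from RefSeq (GRCm38.p6). Tables and figures used Python 3.11.15 with pandas 2.3.3 and matplotlib 3.10.9.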

Additional observations from a re-analysis of the deposited data

Results flagged for a closer look

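In 205 groups of 4 or 5 libraries examined (summed shares and named members at each age), a single library lay apart from the rest, past the 95% limit of Dixon's test, in 18. Chance marks about 1 group in 20. Of the 18, 11 were in 18m replicate 1: the share of all TPM was 3.19% for the whole family, 1.88% for the large and 1.31% for the small subunit, each above the other 3 libraries of that age. The same library stood highest at 18m for Rpl10 (399 TPM), Rpl18 (614 TPM), Rpl27 (539 TPM), Rpl35 (343 TPM), Rpl38 (648 TPM), Rpl39 (192 TPM), Rps27l (561 TPM) and Rps28 (332 TPM). Its median-of-ratios factor was 0.721, the lowest of the 34 libraries. The role of these values in the results was not tested beyond leaving the library out, as given above.

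The other 7 were spread over 7 libraries. Rps27l was high in P7 replicate 1 (571 TPM), Rpl22 in P14 replicate 3 (54.6 TPM), Rps4x in 3m replicate 1 (205.5 TPM) and Rpl38 in 3m replicate 5 (668 TPM). Rplp0 was low in P14 replicate 2 (247 TPM), Rpl36al in 3m replicate 2 (227 TPM) and Rpl6 in 3m replicate 3 (150 TPM).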

How the results depend on the processing

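The number of members called depended on scaling, on the pooled spread and on single libraries, and the causes were not tested. Median-of-ratios rescaling moved the median of all genes from -0.15 to 0.01 (P60 vs P7) and from -0.24 to -0.02 (18m vs 3m) on the log2 scale. It called 18 members in P60 vs P7 (58 as deposited), 13 in 18m vs 3m (6), 1 in 18m vs P7 (33, turned to higher), 1 in P14 vs P7 (23, turned to higher), 4 in P21 vs P14 (31), 0 in P60 vs P28 (1), 0 in 3m vs P60 (1) and 1, higher, in 6m vs 3m (4, lower). Quantile normalization called 37, 2, 10, 3, 0 and 10 members in P60 vs P7, 18m vs P7, P14 vs P7, P21 vs P14, 3m vs P60 and 6m vs 3m. Without a filter 20, 15 and 2 were called in 18m vs P7, P14 vs P7 and 6m vs 3m. The covariates gave 11, 56, 71, 73, 2, 0 and 26 calls in 18m vs 3m, 18m vs P7, P14 vs P7, P21 vs P14, 3m vs P60, 6m vs 3m and 18m vs 12m. Fits on only the 2 ages, which have fewer libraries to estimate the spread, gave 72, 82, 68, 17 (16 higher), 2, 0 and 0 in 18m vs P7, P14 vs P7, P21 vs P14, P60 vs P28, 3m vs P60, 6m vs 3m and 18m vs 12m. In P60 vs P7 the fit on only the 2 ages called 77 members (76 lower). Shares of all genes were not set beside the counts from quantile normalization, no filter, the replicate block or fits on 2 ages. The exception is 18m vs 12m on the 2 ages, with 0% of all genes called. Those counts therefore do not tell members from genes in general.

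Same-numbered libraries share only a number. With the replicate number as a block, 12 members were called in 18m vs 3m, 4 (3 higher) in P60 vs P28, 10 in 6m vs 3m, 8 (5 lower) relative to the family in P60 vs P7 and 4 so in 18m vs 3m, and the other comparisons stayed within 1.5 times. Of 119 same-numbered pairs, 26 correlated above 0.1 (mean 0.0023).

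Relative to the median member, P60 vs P7 gave 14 calls (12 lower) with the covariates and 26 (18 lower) on the 2 ages. Likewise 18m vs 3m gave 3 with a pseudocount of 0.1, 2 with a filter of 5 TPM, 1 lower with the covariates and 3 on the 2 ages. 18m vs P7 gave 0 with the filter of 5 TPM, which removes Rpl3l, 5 (4 lower) with the covariates and 4 (3 lower) on the 2 ages.

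Leaving out each library in turn gave 81 to 83 calls in the F test, 42 to 58 in P60 vs P7, 1 to 8 in 18m vs 3m, 6 to 46 in 18m vs P7, 2 to 16 in P14 vs P7, 7 to 23 in P21 vs P14, 0 in P28 vs P21 and 12m vs 6m, 0 to 1 in P60 vs P28 and 3m vs P60, 0 to 21 in 6m vs 3m and 3 to 13 in 18m vs 12m. Relative to the family it gave 1 to 3, 0 to 5 and 0 to 1 in P60 vs P7, 18m vs 3m and 18m vs P7. Among values of named genes under the alternatives, 3255 kept their direction and side of the threshold, 257 lost the call, 106 gained it and 4 reversed. The 4 were Rps21 in P60 vs P7 with the covariates (log2 fold change -0.889, and -0.0403 relative to the family), and Rpl7l1 in 18m vs 3m after rescaling (0.22) and relative to the family with the covariates (-0.54). The unknown depth of TPM limits what can be said of genes near 0, such as Rpl3l.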
